A study of Homo sapiens with 6 samples.

Results

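ABC transporters are membrane proteins that use ATP to move drugs, conjugates, lipids, peptides or heme precursors across membranes, and they are sorted by sequence into subfamilies A to G. They were taken here as the genes whose symbol in the platform annotation is ABC, a letter from A to G and a number. The array held 39 such genes among 18665 with a single symbol, measured by 68 probes. Of these, 25 genes, with 34 probes, had a probe detected above background on at least 3 of the 6 arrays and could be tested, against 10779 genes tested in all. Family members whose symbols the annotation used here did not pair with a probe were not analysed here.

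The arrays were Illumina Human-6 bead arrays of RNA from A549, an established human lung adenocarcinoma cell line. The control group was 3 samples of A549 cells, for which the sources used here name no vehicle, and the treated group was 3 samples of A549 cells kept for 24 h with DAMTC at 160 µg/ml. DAMTC is the code name the labels use, and both groups were the same line with no other allele or agent named. The p-values rest on the spread over the 3 arrays of a group, pooled over both groups and moderated by limma over all genes tested. The submitters call the triplicates biological but name no separate cultures, so that spread may be technical. Controls took the first positions of a single BeadChip and treated samples the last, so position and treatment cannot be told apart. In bulk RNA, fewer cells and less RNA per cell cannot be told apart either.

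The 6 arrays had 16329 to 17835 probes detected, and each ABC transporter probe was read by 19 to 62 beads per array. Of 10 markers of A549 and lung epithelium, 9 were detected on all 6 arrays, among them KRT8, KRT18, EPCAM and the reductase gene AKR1B10, while AKR1C1 was detected on none. Of 7 alveolar type II markers on the array, LAMP3 was detected on 5 arrays and SFTPD on 3, and SFTPB and NAPSA on none. Among markers of other cells, CD14 and PECAM1 were detected on all 6 arrays, HBA1 on 3 and the other 8 on at most 1, with PTPRC, CD3E, VWF, CDH5, COL1A2 and HBB on none.

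The A subfamily mostly moves lipids, B holds P-glycoprotein and the mitochondrial and lysosomal transporters, and C holds the multidrug resistance-associated proteins (MRPs), which export anionic drugs and conjugates. D lies in peroxisomes and lysosomes, E and F have no membrane span and act in translation, and G moves sterols and drugs. Several of these genes are targets of nuclear receptors: liver X receptors, as dimers with retinoid X receptors, switch on ABCA1 and ABCG1 when oxysterols build up, and NRF2 is known to raise several MRP genes.

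Of the 25 members tested, 6 changed with DAMTC, 4 lower and 2 higher. ABCA1, the exporter of cholesterol and phospholipid to apolipoprotein A-I, fell 4.54-fold, the organic anion exporter ABCC2 (MRP2) 3.24-fold, ABCC4 (MRP4), an exporter of cyclic nucleotides and prostaglandins, 2.45-fold, and ABCE1, the ATPase that splits ribosomes after termination, 2.15-fold. ABCB9, a lysosomal peptide transporter related to the antigen peptide transporter TAP, rose 5.29-fold, and ABCC5 (MRP5), another exporter of cyclic nucleotides and nucleotide drugs, rose 2.10-fold. A change was called by limma's moderated test on log2 levels, Benjamini-Hochberg adjusted over all 10779 genes, at adjusted p under 0.05. By that rule 24.9% of all genes changed, 12.2% higher and 12.8% lower, so the 24% of ABC transporters called is near the background. The median difference, DAMTC minus control, was -0.20 on the log2 scale over the 25 members and -0.04 over all genes, and the median size of the difference was 0.53 and 0.52. The groups did not overlap for 11 of the 25 members, or 44%, against 41.9% of all genes.

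**Figure D1:**
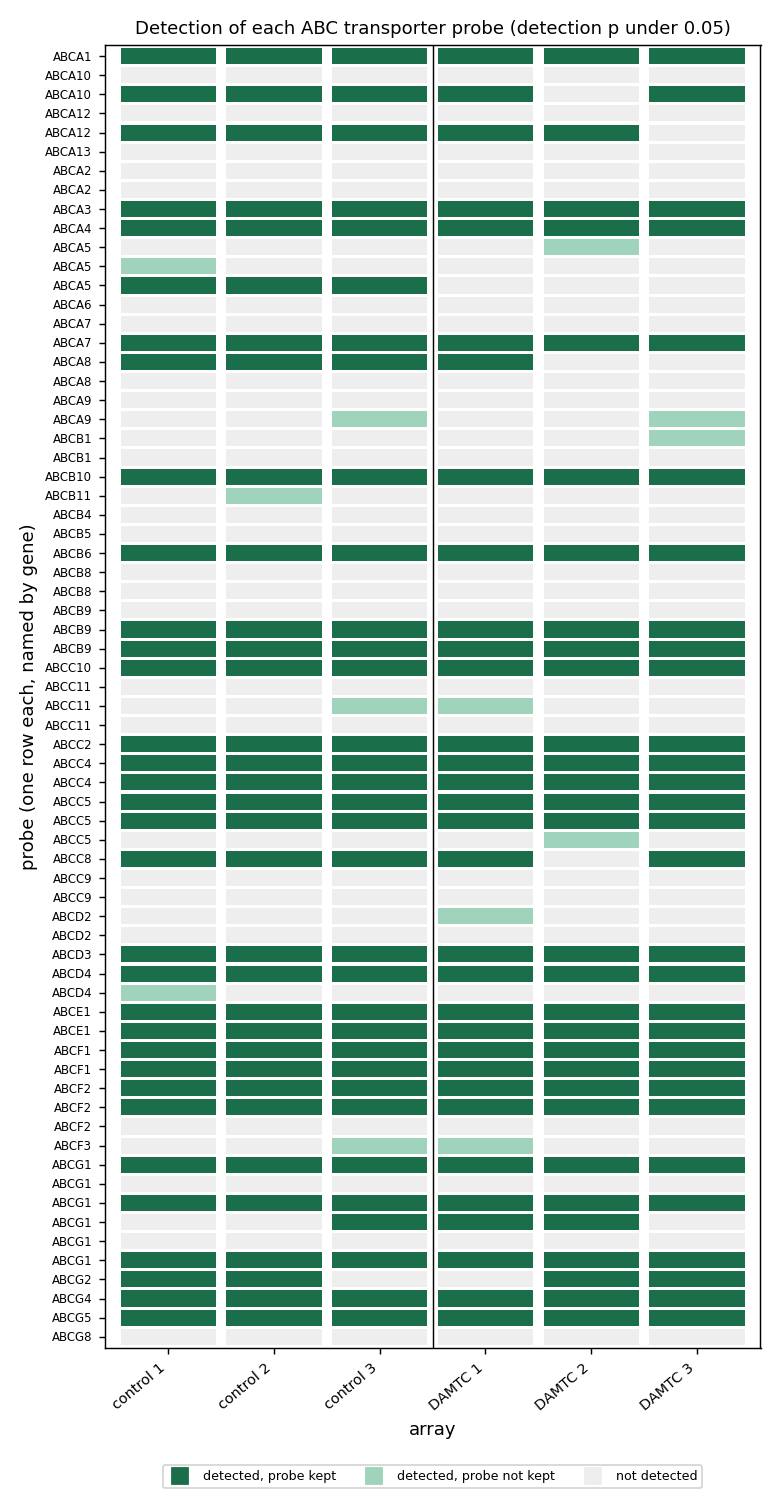
Detection of the 68 ABC transporter probes (rows, named by gene) on 3 control and 3 DAMTC arrays (columns); dark cells are detections of the 34 kept probes, pale green cells detections of probes not kept, and gray cells no detection. Kept probes are mostly dark across all 6 columns, while the 8 genes with no detection at all, such as ABCA2 and ABCB4, are gray throughout.

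The other 14 genes on the array were too dim to be tested, which bounds their signal on this array and does not show that they were silent. ABCA2, ABCA6, ABCA13, ABCB4, ABCB5, ABCB8, ABCC9 and ABCG8 were detected on 0 arrays by any of their probes. ABCA9, ABCB1, ABCB11, ABCC11, ABCD2 and ABCF3 were detected on 1 or 2 arrays by their most often detected probe. For ABCB1, which encodes the drug efflux pump P-glycoprotein, a probe was detected on 1 DAMTC array and the other probe on none. Its log2 levels over both probes and all arrays lay between 4.61 and 5.40, where the lowest level counted as detected was 5.25 to 5.37 depending on the array. ABCB1 was therefore not well above background in either group, and no change of it could be measured.

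ABCA1 had normalized log2 levels of 13.46, 12.29 and 11.73 in control replicates 1 to 3 and of 10.49, 10.51 and 9.94 in DAMTC replicates 1 to 3. Every control array lay above every DAMTC array, and control replicate 1 was the highest of all. In the bead intensities as deposited the same probe read 9500, 5169 and 4183 in controls and 1318, 1551 and 1038 with DAMTC. The fitted difference was -2.18 ± 0.43 on the log2 scale (SE of limma's moderated fit, n = 3 per group, limma adjusted p = 0.00717, 95% interval -3.15 to -1.21).

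ABCC2 had levels of 10.03, 10.08 and 9.85 in controls and of 7.71, 8.63 and 8.52 with DAMTC. The controls lay close together and the groups did not overlap, with DAMTC replicate 1 lowest. The difference was -1.70 ± 0.30 (limma adjusted p = 0.00432). ABCC4 had levels of 10.60, 10.07 and 10.27 in controls and of 8.77, 9.15 and 9.14 with DAMTC, again without overlap. The difference was -1.29 ± 0.26 (limma adjusted p = 0.00752), and the second kept ABCC4 probe read -1.43 ± 0.30.

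ABCC5 rose, while ABCC4, whose product also exports cyclic nucleotides, fell. Its levels were 8.70, 9.75 and 9.05 in controls and 10.25, 10.13 and 10.33 with DAMTC. The DAMTC arrays lay close together and all above the controls, whose highest was replicate 2. The difference was 1.07 ± 0.30 (limma adjusted p = 0.0334), and a second kept probe of ABCC5 read 1.02 ± 0.25 (adjusted p = 0.0184 over all kept probes). The rise of ABCC5 depended on the arrays and on the scaling. Its adjusted p was 0.0982 when control replicate 3 was left out and 0.0946, 0.0861 and 0.114 when DAMTC replicate 1, 2 or 3 was, and 0.0851 with arrays scaled to the same median.

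ABCB9 had levels of 6.45, 8.02 and 8.48 in controls and of 10.81, 9.48 and 9.87 with DAMTC. The groups did not overlap, but the controls spread widely, with replicate 1 lowest. The difference was 2.40 ± 0.54 (limma adjusted p = 0.0131; 95% interval 1.17 to 3.63). Leaving out control replicate 1 brought the rise of ABCB9 to 3.49-fold, and leaving out DAMTC replicate 1 ended its call (2.03, adjusted p = 0.0519). A second kept probe read 2.28 ± 0.52, and the third ABCB9 probe was detected on no array.

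ABCE1 had levels of 11.48, 10.69 and 10.79 in controls and of 9.62, 10.11 and 9.93 with DAMTC. The groups did not overlap. The difference was -1.10 ± 0.29 (limma adjusted p = 0.0254), and its second probe read -1.19 ± 0.30. The call for ABCE1 was lost without DAMTC replicate 1, 2 or 3 (adjusted p = 0.0962, 0.0555 and 0.0787). RefSeq lists pseudogene copies of ABCE1, and also of ABCF2 and ABCB10, and whether the probes also bind transcripts of these was not tested.

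For 4 of the 6 changed members a second kept probe was available, and in all 4 it moved in the same direction and passed when each kept probe was tested by itself. Control replicate 1 was the control array farthest from the DAMTC arrays for 5 of the 6, namely ABCA1, ABCB9, ABCC4, ABCC5 and ABCE1. Without it all 6 stayed past the threshold, at a background of 34.3% of all genes. ABCA1, ABCC2 and ABCC4 stayed past the threshold without any 1 of the 6 arrays.

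**Figure D2:**
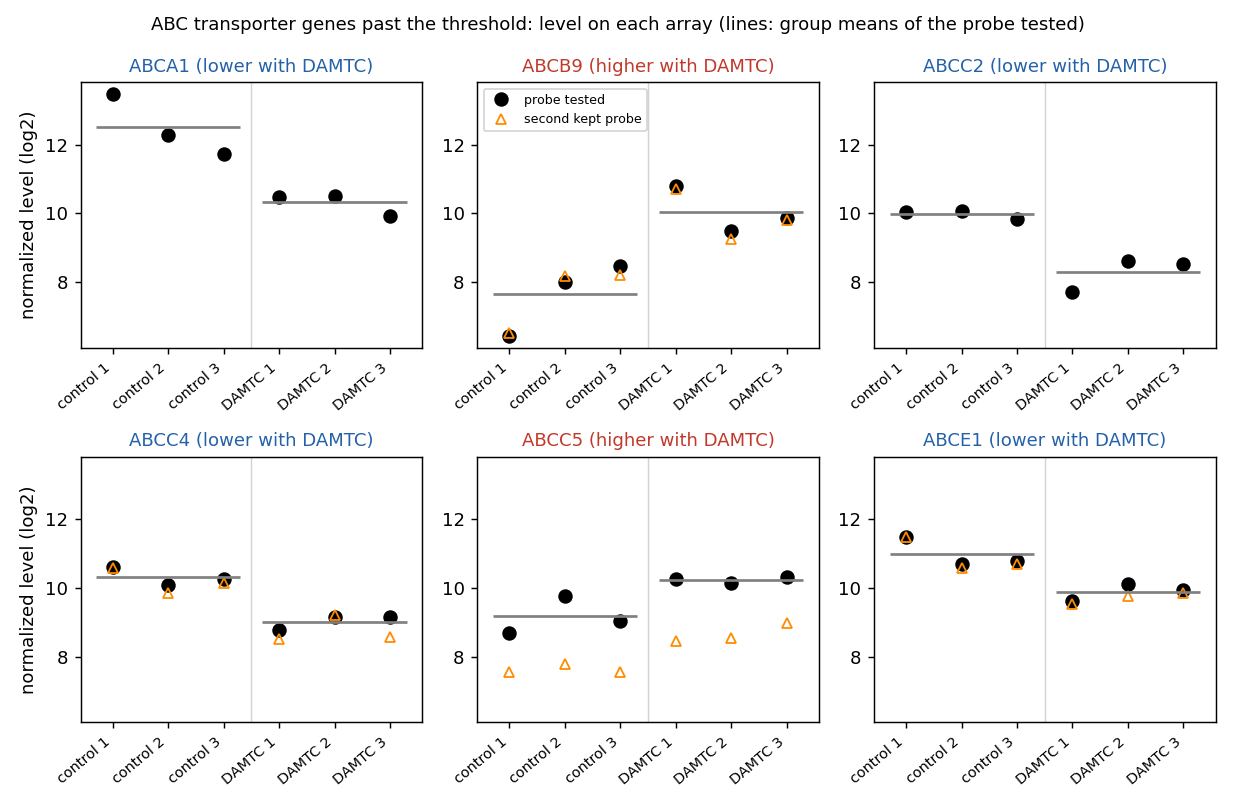
Normalized log2 level (vertical axis) of the 6 changed ABC transporter genes on each of the 6 arrays; black dots are the probe tested, orange triangles a second kept probe of the same gene, and gray lines the group means of the probe tested. In each panel the 3 DAMTC dots lie all above or all below the 3 control dots, and the triangles follow the dots.

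Scaling bears on the balance of rises and falls. With quantile normalization 2 of the 6 changed members, or 33.3%, were higher, as were 48.8% of all changed genes. With arrays scaled to the same median 1 of 7 members (14.3%) and 29.5% of all changed genes were higher. With the authors' background-subtracted values, which shared a common array mean and were floored at 16 here, these were 1 of 6 (16.7%) and 36.1%. These scalings put the median difference of all genes at -0.26 and -0.19, and 28.2% and 26.1% of all genes passed. Relative to that median, ABCC5 was higher by 1.04 and 1.11, against 1.11 with quantile normalization, and ABCB9 by 2.35 and 2.51, against 2.44. The 4 members that fell stayed past the threshold under both scalings.

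**Figure D3:**
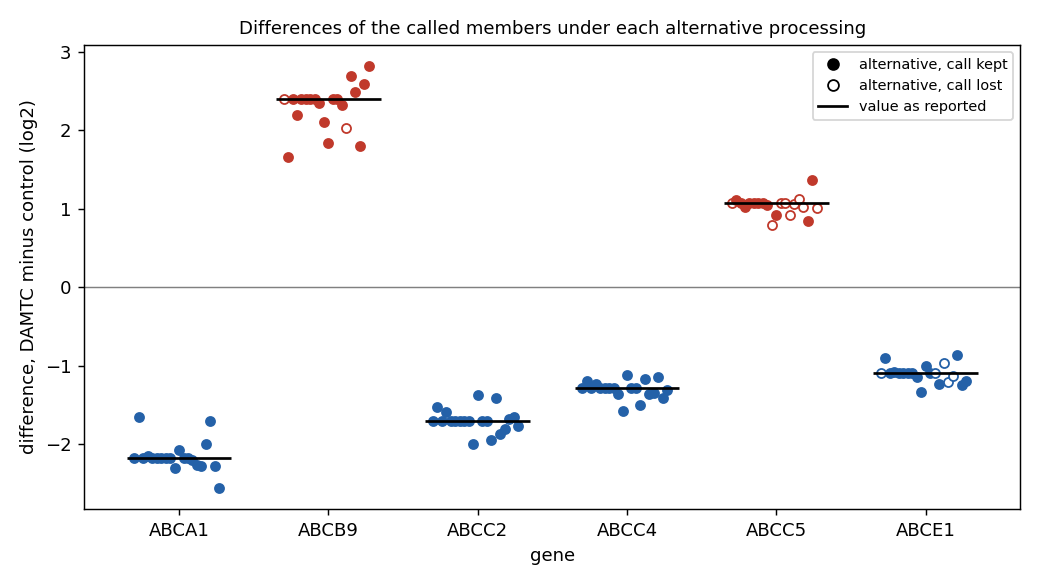
Difference, DAMTC minus control, on the log2 scale (vertical axis) for the 6 changed members (horizontal axis) under 20 alternative ways of processing or leaving out 1 array; filled dots kept the call, open dots lost it, and the black line is the value as reported. ABCA1, ABCC2 and ABCC4 show filled dots only, and ABCC5 has the most open dots, 9 of 20.

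The promoters of the 3 members whose fall was stable, and of ABCB9 as the larger rise, are shown from RefSeq (GRCh38.p14), 250 bases before to 50 after the gene start, 5′ to 3′ on the gene's strand. They lie at chr9:104928106-104928405 (minus strand) for ABCA1, chr10:99782390-99782689 (plus strand) for ABCC2, chr13:95301402-95301701 (minus strand) for ABCC4 and chr12:122966414-122966713 (minus strand) for ABCB9. Capitals mark letters that match a searched motif on either strand.
ABCA1: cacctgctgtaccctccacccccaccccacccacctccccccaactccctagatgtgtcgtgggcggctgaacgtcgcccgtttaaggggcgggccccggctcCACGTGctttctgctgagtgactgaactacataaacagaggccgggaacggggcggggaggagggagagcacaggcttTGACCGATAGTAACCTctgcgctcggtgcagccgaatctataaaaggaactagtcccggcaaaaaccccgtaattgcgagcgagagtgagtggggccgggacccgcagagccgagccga
ABCC2: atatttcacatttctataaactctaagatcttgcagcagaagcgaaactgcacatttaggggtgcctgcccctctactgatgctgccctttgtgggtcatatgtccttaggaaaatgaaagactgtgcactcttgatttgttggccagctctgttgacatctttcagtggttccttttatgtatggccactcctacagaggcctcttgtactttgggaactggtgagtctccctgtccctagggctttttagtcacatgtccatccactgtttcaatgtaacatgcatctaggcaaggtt
ABCC4: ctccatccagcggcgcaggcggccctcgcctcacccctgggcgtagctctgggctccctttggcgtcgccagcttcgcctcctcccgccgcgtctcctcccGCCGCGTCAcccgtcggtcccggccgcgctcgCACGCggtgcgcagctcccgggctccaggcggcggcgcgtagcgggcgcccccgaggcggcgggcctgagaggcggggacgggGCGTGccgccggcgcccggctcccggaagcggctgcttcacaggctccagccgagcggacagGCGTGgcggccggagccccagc
ABCB9: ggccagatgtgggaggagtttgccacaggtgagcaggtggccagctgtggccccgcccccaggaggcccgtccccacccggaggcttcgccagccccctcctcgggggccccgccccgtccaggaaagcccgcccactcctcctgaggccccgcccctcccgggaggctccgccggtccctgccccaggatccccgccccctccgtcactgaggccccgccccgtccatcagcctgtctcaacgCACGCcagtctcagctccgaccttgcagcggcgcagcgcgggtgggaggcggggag

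The motifs were ACGTG and GCGTG (core letters of sites for HIF and the aryl hydrocarbon receptor), CACGTG (an E-box, which overlaps ACGTG), TGACNNNGC (core of the antioxidant response element), ATTGG (the CCAAT box read from the other strand) and DR4, the direct repeat with a 4-base spacer bound by liver X and retinoid X receptors. The ABCA1 window holds CACGTG, which 7.43% of 27305 promoters hold. It holds no exact DR4, but it holds 1 copy with at most 2 letters off, shown as the long run of capitals, as do 2.42% of promoters. That run lies where the liver X receptor element of ABCA1 is known from earlier work. ABCC4 holds 1 copy of TGACNNNGC (13.6% of promoters) and 3 of GCGTG (36.3% of promoters), and ABCB9 holds 1 of GCGTG. The ABCC2 window matches none of the motifs and has 1 CpG and a GC content of 45%, against 62.7% for ABCA1, 75.3% for ABCB9 and 79.7% for ABCC4. ATTGG, found in 35.7% of promoters, was in none of the 6 changed members' windows. Promoters were on file for 33 of the 39 members, and a match in letters shows no binding in these cells.

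Members that did not pass are described by subfamily with the difference and its 95% interval. In subfamily A, ABCA10 read -0.92 (interval -1.62 to -0.23, limma adjusted p = 0.0568). Its control levels were 6.97, 5.94 and 6.42, all above the highest DAMTC level, 5.65 in replicate 1. ABCA5, a transporter of endosomes and lysosomes that lies beside ABCA10 on chromosome 17, was detected on all 3 control arrays and on 0 DAMTC arrays. Its levels were 6.79, 5.40 and 5.69 in controls and 4.98, 4.96 and 4.72 with DAMTC. The fitted difference was -1.07 (-1.90 to -0.24, limma adjusted p = 0.0633). As the DAMTC levels lay under detection, the group means differ by at least 1.54-fold, without allowance for the spread over arrays. Neither passed as reported. Both passed with median scaling (adjusted p = 0.0206 and 0.0418), and their further probes were not detected on enough arrays to be compared. ABCA8, in the same gene cluster, differed by -0.10 (-0.77 to 0.57).

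ABCA3, which loads surfactant lipid into lamellar bodies of alveolar type II cells, had levels of 7.57, 8.65 and 8.11 in controls and of 8.10, 7.19 and 7.29 with DAMTC. The groups overlapped, and the difference was -0.59 (-1.41 to 0.24, adjusted p = 0.277). The skin lipid transporter ABCA12 differed by -0.39 (-1.13 to 0.35), the retinal transporter ABCA4 by 0.01 (-0.69 to 0.71) and ABCA7 by 0.08 (-0.50 to 0.65).

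In subfamily B, both tested mitochondrial members read below 0 with wide intervals. ABCB10, which acts in heme synthesis at the inner mitochondrial membrane, differed by -0.79 (-2.00 to 0.42), with control replicate 1 at 9.79 and the other controls at 7.61 and 8.31. Without control replicate 1 the difference of ABCB10 was -0.18. ABCB6, linked to porphyrin transport, differed by -0.48 (-1.45 to 0.48). Here control replicate 1 was the lowest control at 9.84, against 11.61 and 11.04, and without it ABCB6 passed (-0.98, adjusted p = 0.0216). In subfamily C, ABCC10 (MRP7) differed by -0.56 (-1.21 to 0.08) and ABCC8, the sulfonylurea receptor, by -0.53 (-1.40 to 0.35). The control replicate 2 level of ABCC8 was 6.79, against 5.57 and 5.29 in the other controls.

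In subfamilies D, F and G, 0 members passed in limma's test, and of these ABCG4 had an unadjusted p under 0.05. The peroxisomal fatty acid transporter ABCD3 differed by 0.16 (-0.57 to 0.89), and ABCD4, which acts in lysosomal cobalamin release, by 0.21 (-0.33 to 0.76). ABCF1, which takes part in translation initiation, had levels of 10.38, 10.47 and 10.36 in controls and of 10.92, 10.84 and 10.64 with DAMTC. The groups did not overlap, but the difference of 0.40 (-0.12 to 0.91) did not pass (adjusted p = 0.241), and its second probe read 0.66 (adjusted p = 0.0629 over all kept probes). ABCF2 had levels of 7.81, 7.01 and 7.44 in controls and of 7.42, 7.19 and 7.34 with DAMTC by one probe, with overlap, and of 7.36, 6.19 and 6.69 against 6.79, 7.57 and 7.50 by the other. These read -0.10 and 0.54, with opposite signs, and neither passed.

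ABCG1, the other main cholesterol exporter among liver X receptor targets, did not pass, and its difference from ABCA1 was not tested. Its levels were 7.20, 8.47 and 7.40 in controls and 7.98, 8.14 and 7.84 with DAMTC, with overlap. The difference was 0.30 (-0.50 to 1.09, adjusted p = 0.582). Its 3 further kept probes read -0.29, 0.29 and 0.36, so that one had the opposite sign, and none of these passed. The probe of opposite sign had levels of 7.14, 7.83 and 7.19 in controls and of 6.61, 7.25 and 7.43 with DAMTC. ABCG2, the breast cancer resistance protein, was near background, detected on 2 control and 2 DAMTC arrays. Its levels were 5.97, 5.34 and 5.24 in controls and 5.01, 5.44 and 5.50 with DAMTC, a difference of -0.20 (-0.85 to 0.45). ABCG4, a sterol transporter, read 0.60 (0.06 to 1.14, adjusted p = 0.101) without overlap, and ABCG5, which pairs with ABCG8 to pump plant sterols, read 0.39 (-0.15 to 0.93).

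For 9 of the 19 members that did not pass, the 95% interval of the probe tested lay within 1 log2 unit of 0 on both sides. A 2-fold change in normalized signal of that probe lay outside it. ABCF1 and ABCF2 are among the 9, but their second kept probes had intervals of 0.15 to 1.16 and -0.27 to 1.35. Those reach beyond a 2-fold rise. For the other 10 the interval reached beyond a 2-fold change in at least 1 direction. Several of the 9, such as ABCA4 and ABCG2, lay near background, where a 2-fold change in RNA is not excluded. Differences there depend on the background handling: the dim ABCA10 read -0.35 without background correction and -1.49 with the authors' values. Members were also split, after the values were seen, at the median brightness of all tested probes (8.33). All 6 changed members were among the 8 at or above it. Brightness was averaged over all 6 arrays, treated ones included. ABCB9, with means of 7.65 in controls and 10.05 with DAMTC, reached 8.33 only through its DAMTC arrays. Of the 17 dimmer members 0 passed in limma's test and 3 had an unadjusted p under 0.05. Over all genes the shares called were 23.8% for the brighter and 26.1% for the dimmer probes.

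**Figure D4:**
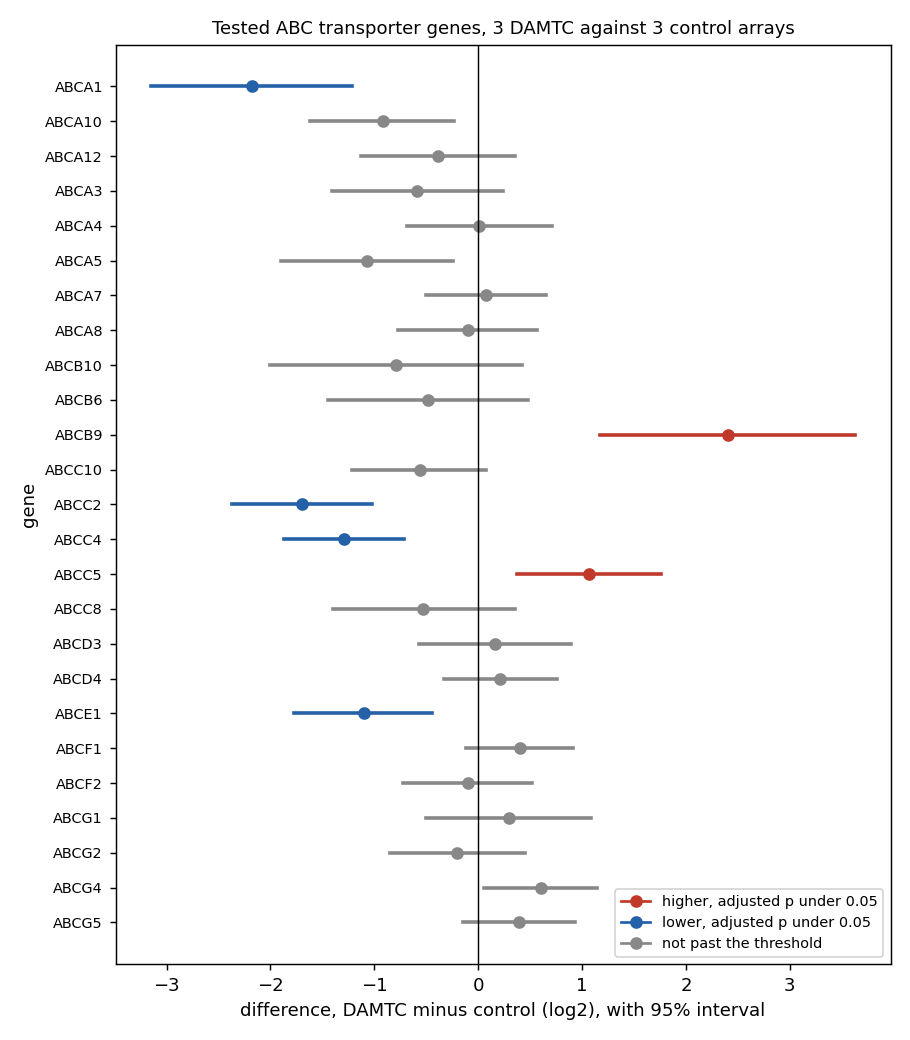
Difference of each of the 25 tested ABC transporter genes, DAMTC minus control, on the log2 scale (dots) with its 95% interval (bars), 3 arrays per group; red and blue mark genes higher and lower at adjusted p under 0.05 and gray genes that did not pass. The dots range from -2.18 for ABCA1 to 2.40 for ABCB9.

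Members of the ABC family that go by other symbols did not pass. TAP1 and TAP2, which pump peptides into the endoplasmic reticulum for antigen presentation, differed by -0.17 (-0.93 to 0.60) and -0.11 (-0.88 to 0.67), and the chloride channel gene CFTR was not detected on enough arrays to be tested. Genes around the transporters were read from lists of regulators and partners. Their counts are to be set against the 24.9% of all genes called. This share was 22.4% to 28.2% over the background and scaling alternatives, with 28.2% at median scaling. It was 14.7% to 34.3% without 1 array.

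Of 16 tested transcription regulators of ABC genes, 4 fell and 1 rose, with a median difference of -0.28. RXRA, the retinoid X receptor that pairs with liver X receptors, fell 3.42-fold (-1.78 ± 0.48, adjusted p = 0.0272). NR1H3, the liver X receptor alpha gene, differed by -0.70 (-1.52 to 0.11). PPARG, a fatty acid receptor that is known to raise ABCA1, fell by 1.05 on the log2 scale (adjusted p = 0.0268), and HIF1A fell by 1.70 (adjusted p = 0.0127), with further HIF1A probes at -1.13 and -1.44 that did not pass. MTF1, the metal-responsive factor, rose 2.69-fold. The falls in this list numbered 1 to 6 without 1 array. RXRA was among the calls lost without control replicate 2 or 3 or DAMTC replicate 2 or 3, and PPARG without control replicate 3 or DAMTC replicate 1 or 3, while HIF1A and MTF1 passed without any 1 array. NFE2L2, which encodes NRF2, differed by -0.78 (-1.54 to -0.01, adjusted p = 0.129).

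Of 16 tested cholesterol and phospholipid handling genes, 2 rose and 0 fell in limma's test, as was so without any 1 array, and 0 fell at an unadjusted p under 0.05. With arrays scaled to the same median 1 fell. MYLIP, the ubiquitin ligase of the LDL receptor and itself a liver X receptor target, rose 11.8-fold, from 8.29 ± 0.21 in controls to 11.85 ± 0.13 with DAMTC (SD, n = 3, limma adjusted p = 9.16e-05). ABCA1 and MYLIP, which share that known regulator, moved in opposite directions, and the cause was not tested. STARD4, a cytosolic sterol carrier, rose 6.17-fold. Of 10 uptake carriers and other efflux proteins, SLCO4A1, an organic anion uptake carrier, rose by 1.37 and the carnitine carrier SLC22A5 fell by 1.43. The other 8 did not pass and all read below 0, and the median difference of the list was -0.66. Of those 8, SLCO2B1 read -2.04 (-3.55 to -0.52, limma adjusted p = 0.0549) without overlap. The falls in this list numbered 1 to 5 without 1 array and 1 to 4 over the background and scaling alternatives.

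Of 22 conjugation genes, which make substrates of the MRPs, 1 rose and 2 fell. The glutathione transferase GSTM3 rose (adjusted p = 0.00546), with levels of 5.09, 5.47 and 4.78 in controls and of 6.36, 6.86 and 7.33 with DAMTC. It was detected on 1 of 3 control arrays, so no fold is given, and it was not tested where detection on all 6 arrays was required. UGDH, which makes UDP-glucuronic acid, fell by 1.25, and GCLC, a subunit of glutamate-cysteine ligase, fell by 0.84. Their calls held in 4 and 1 of the 6 fits without an array. A further GCLC probe read -0.65 and did not pass, and the falls numbered 0 to 6 without 1 array. Of 21 peroxisome and cobalamin genes, 3 rose and 3 fell. PEX11A, a peroxisome division gene, rose by 1.71, the thiolase ACAA1 rose by 1.16, and the fatty acid transport protein SLC27A2 fell by 1.38. The call of ACAA1 held in 4 of the 6 fits without an array. MMACHC, which processes cobalamin, was not detected with DAMTC and fell at least 1.77-fold, but passed in 1 of 6 fits that left out an array. The rises and the falls in this list both numbered 1 to 4 without 1 array.

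Of 16 heme and iron-sulfur genes, 3 rose and 1 fell. ALAS1 and ALAD, the enzymes of the opening steps of heme synthesis, rose 3.29-fold (1.72 ± 0.27) and 2.68-fold (1.42 ± 0.24) and passed without any 1 array. SLC25A38, the mitochondrial glycine carrier of heme synthesis, read 0.95 ± 0.26 and UROS -0.85 ± 0.26, with calls held in 2 and 1 of the 6 fits without an array. The rises in this list numbered 2 to 3 and the falls 0 to 3 without 1 array, and with arrays scaled to the same median 2 rose and 4 fell. Of 13 ribosome recycling and eIF2 genes, 2 fell with ABCE1 and 0 rose, with PELO nearest to a rise (0.80, adjusted p = 0.0503). DENR, a recycling factor, fell by 1.22, while its second probe read -0.11 (adjusted p = 0.801 over all kept probes). EIF2S2, the beta subunit of eIF2, fell by 0.82. The calls of DENR and EIF2S2 held in 3 and 1 of the 6 fits without an array. The falls numbered 0 to 4 without 1 array and 3 to 6 over the background and scaling alternatives.

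Of 3 tested surfactant and lamellar body genes, 2 fell and the third, SFTPD, read -0.96 (-1.91 to -0.01). LAMP3, a lamellar body protein, fell by 2.35 (adjusted p = 0.0408) and LPCAT1, which makes surfactant phospholipid, by 1.36 (adjusted p = 0.0148). The size of the LAMP3 fall rested on control replicate 2, at 9.76 against 6.93 and 6.91 in the other controls, and was 1.41 without it. Neither passed without DAMTC replicate 1, 2 or 3, nor LPCAT1 without control replicate 3, and the falls numbered 0 to 3 without 1 array. KCNJ8, the potassium channel partner of ABCC9, differed by -0.55 (-1.20 to 0.09).

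**Figure D5:**
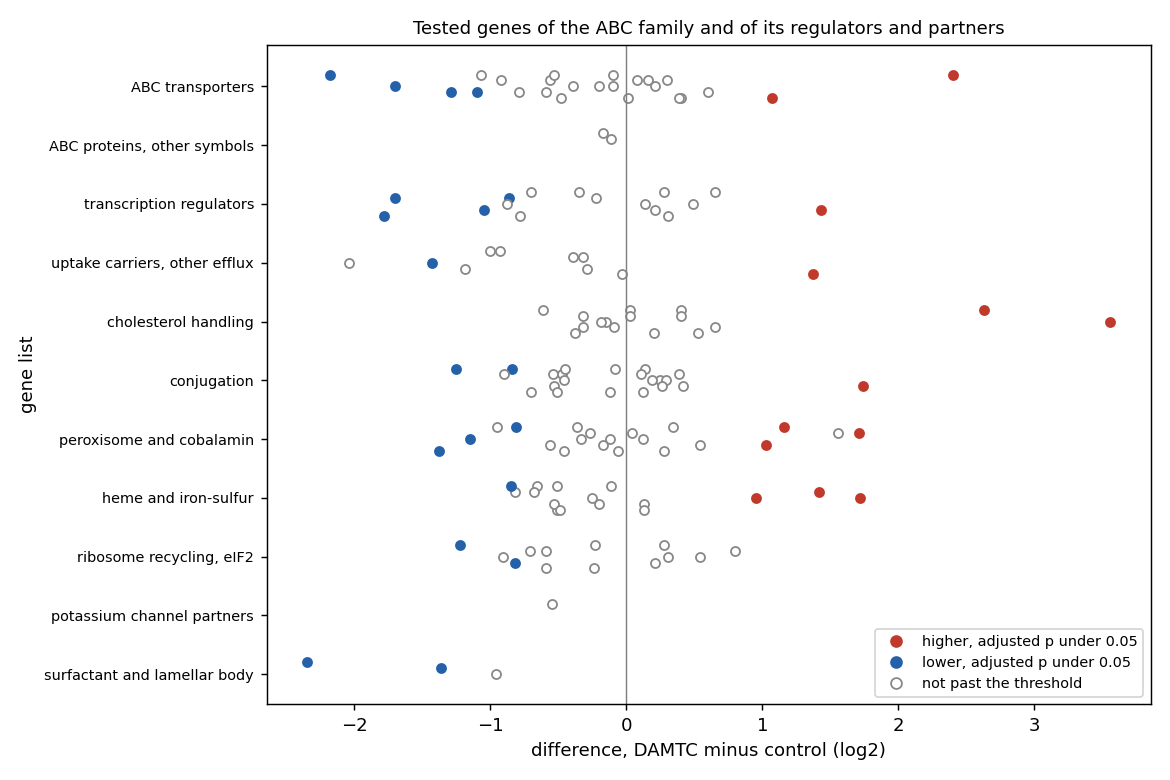
Difference, DAMTC minus control, on the log2 scale for each tested gene of the ABC family (top line) and of 10 lists of regulators and partners; filled red and blue dots passed at adjusted p under 0.05 and open dots did not. The dot farthest to the right is MYLIP at 3.56, and the ABC family spans -2.18 to 2.40.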

How the data were processed

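Per the file headers, the deposited table gives a mean bead intensity per probe and array on a linear scale, not background-subtracted or scaled, with a detection p-value, a bead number and a standard error. BeadStudio is named per the submitters' processing notes, without a version. The authors' series matrix intensity values, deposited on a linear scale, were a straight line of the bead intensity on each array (largest residual 0.0107), with column medians of 10.94, 9.339 and 8.585 in controls 1 to 3 and 8.992, 8.696 and 9.167 with DAMTC. They served as an alternative, with no unknown in scale, centring or direction. Their column means were 461.96 to 462.07, so the arrays shared a common mean. For this alternative, values under 16 were set to 16 before log2, a level above every column median.

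The nec function of limma 3.58.1 (R 4.3.3) removed background at an offset of 16, and quantile normalization and log2 followed. Among 48803 probes, 27578 had 1 symbol, 13 several and 21212 none in the platform annotation. Entrez IDs of 27541 were in the RefSeq table and changed 0 symbols. 1 probe ID on 2 rows was averaged. Probes detected at p under 0.05 on 3 or more of 6 arrays were kept, and each gene was tested by its brightest kept probe with lmFit and eBayes over 10779 genes, without a replicate block. A probe undetected on every array of a group gives a bound: in the dim group each array takes its own value or the lowest detected level, whichever is higher, before averaging. This bounds the fold between the group means and makes no allowance for the spread over arrays. Fits without 1 array kept the same values and genes. The number of arrays limits the precision. The steps were also run on simulated data, with noise drawn independently for each probe and array. That run cannot speak to deviations shared by many genes of an array.

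Members and lists were chosen with earlier results of these data known. Per-array levels are given for members past the threshold or with disagreeing probes and for ABCA1, ABCA3, ABCB1, ABCG1 and ABCG2, and for others after their values were seen. Up to 4 changed genes per list, or else the one of smallest p, are named. NR1H3, NFE2L2, PELO, SFTPD and SLCO2B1 were named after their values were seen. Protein sequences were not used here.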

Additional observations from a re-analysis of the deposited data

How the results depend on the processing

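Each result was recomputed under 20 alternatives to the background, scaling, detection filter, probe rule, variance moderation, array weights, block, threshold and arrays used. The falls of ABCA1, ABCC2 and ABCC4 passed in all 20, with differences of -2.56 to -1.66, -2.00 to -1.38 and -1.58 to -1.12. ABCB9 passed in 18 (1.66 to 2.82), ABCE1 in 15 (-1.33 to -0.86) and ABCC5 in 11 (0.79 to 1.36), and no changed member reversed its direction. The count of ABC transporter genes higher with DAMTC was 2 as reported. It was 1 with median scaling, with the authors' series matrix values and without a detection filter. In these settings 28.2%, 26.1% and 13.2% of all genes passed. The count higher was also 1 with a replicate block. At adjusted p under 0.01 it was 0, where 3 were lower and 11.9% of all genes passed. It ranged from 0 to 2 when 1 array was left out, where 14.7% to 34.3% of all genes passed, against 24.9% as reported. The count lower, 4 as reported, was 9 with array weights, with which 45.1% of all genes passed, and 3 to 6 when 1 array was left out. With the replicate number as a block 1 member was higher and 3 lower, and 14.7% of all genes passed. Without DAMTC replicate 1, 2 or 3 the members called numbered 3, 4 and 4 of 25, beside 15%, 15.2% and 14.7% of all genes. Same-numbered arrays did not deviate together (r = -0.45, -0.46 and -0.18 over all genes tested). Control replicate 1 with DAMTC replicate 2 gave r = 0.56 and control replicate 3 with DAMTC replicate 1 gave 0.43, with the remaining pairs at -0.32 to 0.24. With 3 arrays per group this cannot exclude a shared culture or day, so whether the numbers pair the samples is not known. The cause of these shifts was not tested. Of the 19 members that did not pass as reported, 5 passed in at least 1 alternative, all lower with DAMTC: ABCA10, ABCA5, ABCA12, ABCA3 and ABCB6. Signal over background limited the 14 members that could not be tested.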
